A study of Sus scrofa with 4 samples.

Results

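MYOC and ANGPTL7, a pair of genes best known from the front of the eye, were described in single cells of the pig meniscus, the fibrocartilage of the knee. They are 2 of the 21280 genes in the count matrices, picked by symbol because of their measured pattern in these libraries, so their own levels are given as a description with no test. The tissue of the lateral and the medial meniscus was dissected free of synovium and divided into the inner white zone, which lacks vessels in the adult, and the outer vascular red zone. Cells released with pronase and then collagenase P were captured with 10x Genomics 3′ chemistry (v3.1 kit) from pigs (Sus scrofa) whose strain, age, sex and number are not given in the sources used here. There were 2 white zone libraries (lateral, medial) and 2 red zone libraries (lateral, medial), 1 for each meniscus and zone; no treatment is named for any. No label says whether the libraries came from separate animals, so a p-value below measures only the spread between these 4 libraries. Each count is of unique molecular identifiers (UMIs), which stand for captured RNA molecules, and a level is given as CPM, the gene's UMIs per 1000000 UMIs of the same cells.

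Myocilin, the product of MYOC, is a secreted glycoprotein with an olfactomedin domain that accumulates in the trabecular meshwork, and inherited changes in human MYOC cause open-angle glaucoma. Angiopoietin-like 7, the product of ANGPTL7, is a secreted protein with a fibrinogen-like domain, made in human cornea and trabecular meshwork, and glucocorticoids raise both genes in human trabecular meshwork cells. CILP encodes an extracellular protein of the intermediate layer of cartilage, KERA encodes keratocan, a small leucine-rich proteoglycan best known from the cornea, and COL1A1 encodes the main chain of type I collagen.

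In the RefSeq annotation of the pig build Sscrofa11.1, the build named in the submitters' processing notes, MYOC (ENSSSCG00000035066) spans chromosome 9, positions 114087370 to 114098765, and overlaps no other annotated gene. ANGPTL7 (ENSSSCG00000003414) spans chromosome 6, positions 71350872 to 71356299, and lies within the span of MTOR, which runs from 71286989 to 71412913. Reads in such a region can be told apart only by strand and exon. MTOR itself had 59 UMIs in the lateral white library, 84 in the medial white, 93 in the lateral red and 106 in the medial red. These counts were lower than those of ANGPTL7 in every library and were not ordered like them. They do not show how many MTOR reads were counted as ANGPTL7, and read sharing was not tested.

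The 4 libraries kept 7381 cells and 13716080 UMIs (lateral white), 7807 cells and 14902274 UMIs (medial white), 5566 cells and 9224209 UMIs (lateral red) and 6587 cells and 11119101 UMIs (medial red), with median depths of 1495, 1617, 1454 and 1468 UMIs per cell in the same order. Between 10 and 20 cell barcodes were shared by any pair of libraries. Clusters were made without the 5 genes MYOC, ANGPTL7, CILP, KERA and COL1A1. Of the 10 clusters, 5 held matrix cells: chondrocyte-like (COL2A1, SNORC), fibrochondrocyte-like (OMD, CILP2, COMP), fibroblast-like (MFAP5, PI16, LUM), tendon-type fibroblast-like, and 1 that stayed unnamed, led by LCN2, SPP1 and LBP. The tendon-type cluster was led by CRABP1, CPXM2, CPZ and COL14A1. Of the markers behind its name, TNMD (84.8 CPM), THBS4, COL12A1 and COL14A1 were highest there among the clusters. The others were not. SCX was at only 1.76 CPM there, and TPPP3 was at 65.1 CPM against 524.8 CPM in mural-like cells. MKX was highest in fibrochondrocyte-like cells. The name thus rests on part of its marker list. Matrix cells made up 94.6% and 93.9% of the lateral and medial white libraries, and 48.7% and 57.2% of the lateral and medial red ones; most other cells were endothelial-like, mural-like or myeloid-like.

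MYOC was a red zone transcript. It had 84 UMIs in the lateral white library and 28 in the medial white, against 728 in the lateral red and 1256 in the medial red. Scaled to depth, these were 6.12 CPM (95% exact Poisson interval 4.89 to 7.58) in the lateral white and 1.88 CPM (1.25 to 2.72) in the medial white, against 78.9 CPM (73.3 to 84.9) in the lateral red and 113 CPM (107 to 119) in the medial red. Both red libraries lay far above both white ones, and the 4 intervals did not overlap; intervals of this kind cover counting error only. The white library was 12.9-fold lower than the red laterally and 60.1-fold lower medially, a mean log2 ratio of white over red of -4.80 ± 1.57 (SD, n = 2 menisci).

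Few cells carried the MYOC molecules. At least 1 UMI was found in 53 cells (0.718%) of the lateral white library and 23 cells (0.295%) of the medial white, against 270 cells (4.85%) of the lateral red and 437 cells (6.63%) of the medial red. The richest cell held 6 UMIs in the lateral white and 3 in the medial white, against 37 in the lateral red and 22 in the medial red. In the red libraries the distribution had a long tail: the richest 10% of MYOC-positive cells carried 46.6% of the MYOC UMIs in the lateral red and 33.9% in the medial red. No white zone cell reached 10 UMIs, whereas 13 lateral red and 14 medial red cells did.

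ANGPTL7 did not follow the zones. It had 698 UMIs in the lateral white library and 5241 in the medial white, against 778 in the lateral red and 1495 in the medial red. The levels were 50.9 CPM (47.2 to 54.8) in the lateral white and 352 CPM (342 to 361) in the medial white, against 84.3 CPM (78.5 to 90.5) in the lateral red and 134.5 CPM (127.7 to 141.4) in the medial red. The medial white library was highest and the lateral white lowest, with the red libraries between them, so the zones overlapped although no interval met another. The log2 ratio of white over red was -0.73 laterally and 1.39 medially, and their mean, 0.33 ± 1.496 (SD, n = 2 menisci), was smaller than its own spread. Medial over lateral, ANGPTL7 was 6.91-fold higher in the white zone and 1.59-fold higher in the red.

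ANGPTL7 was detected in 252 cells (3.41%) of the lateral white library and 1127 cells (14.4%) of the medial white, against 165 cells (2.96%) of the lateral red and 271 cells (4.11%) of the medial red. The richest cells held 42 and 65 UMIs in lateral and medial white tissue, against 57 and 52 in lateral and medial red tissue. Cells with 10 or more UMIs numbered 17 and 154 in lateral and medial white tissue, against 22 and 48 in lateral and medial red tissue. High-count ANGPTL7 cells were thus present in every library, unlike those of MYOC. Cells positive for either gene were deeper than the rest: ANGPTL7-positive cells had a median of 2101 UMIs against 1554 in negative cells of the medial white library, and MYOC-positive cells had 1757 UMIs against 1440 in negative cells of the medial red. Shares of cells are therefore compared below after each cell was thinned to 1000 UMIs, with shallower cells left out, which keeps 5940, 6582, 2294 and 3023 matrix cells (lateral white, medial white, lateral red, medial red). Thinned, MYOC was in 0.522% and 0.182% of matrix cells of the lateral and medial white libraries, against 7.41% and 9.63% of the lateral and medial red. ANGPTL7 was in 2.44% and 12.0% of the lateral and medial white, against 5.06% and 6.68% of the lateral and medial red.

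**Figure D1:**
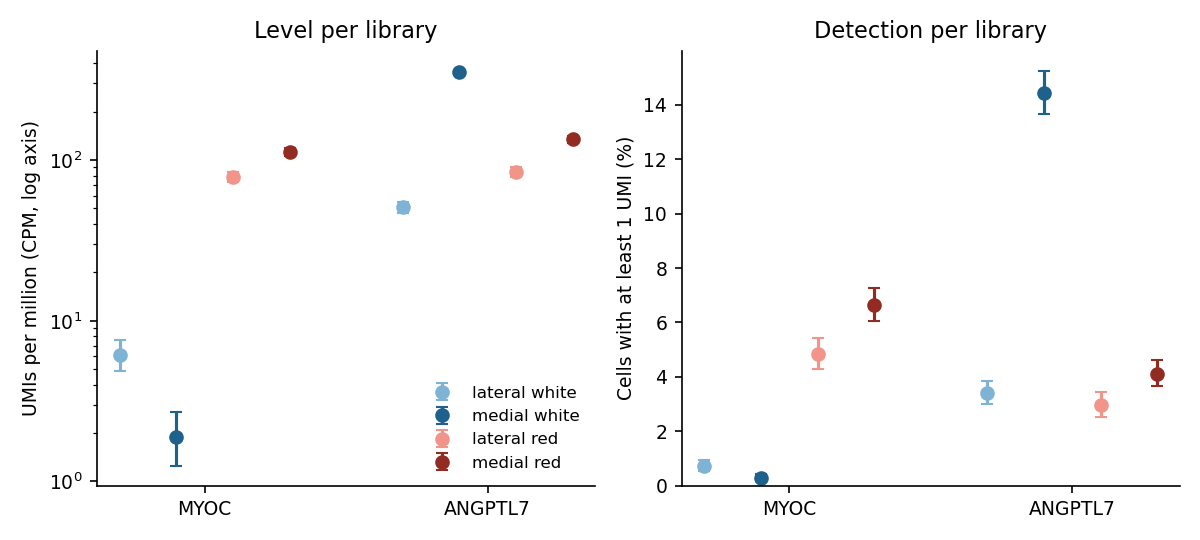
Levels in CPM (left, log axis) and percent of cells with at least 1 UMI (right) of MYOC and ANGPTL7 in the 4 libraries, 1 point a library with its 95% exact interval for counting error. MYOC is at 6.12 and 1.88 CPM in the white libraries and at 78.9 and 113 CPM in the red ones; ANGPTL7 is highest in the medial white library, at 352 CPM.

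In the red libraries both genes lay almost wholly in matrix cells, as did ANGPTL7 in the white ones. Of the MYOC UMIs, 84 of 84 and 26 of 28 in lateral and medial white tissue, and 720 of 728 and 1232 of 1256 in lateral and medial red tissue, were in the 5 matrix clusters. Matrix cells were nearly all cells of the white libraries, so their share of the MYOC UMIs does not set them apart there. In the medial white library MYOC was in 0.287% of 7329 matrix cells and in 0.418% (2 of 478) of the others. With only 2 positive cells outside the matrix clusters, these shares cannot be told apart. By cluster, 20 positive cells were among the 3869 fibrochondrocyte-like cells and 0 among the 2311 chondrocyte-like cells. Of the ANGPTL7 UMIs, 695 of 698 and 5233 of 5241 in lateral and medial white tissue were in the matrix clusters. In lateral and medial red tissue 775 of 778 and 1492 of 1495 were. Whether UMIs outside the matrix clusters came from free RNA was not tested. Endothelial-like cells had a lower median depth (1139 UMIs) than the tendon-type cells (1661 UMIs). Of them, 2 of 996 in the lateral red and 4 of 1056 in the medial red had a MYOC UMI (0.201% and 0.379%), and none of either had an ANGPTL7 UMI, which, at 3 counts, allows shares of cells with a UMI of up to 0.301% and 0.284%. In the medial white library 1 of the 250 cells of this cluster had a MYOC UMI, as did 1 of 49 in the other endothelial-like cluster. Among myeloid-like cells of the medial red, 4 of 655 had MYOC, with 1.35% of its UMIs, and 0 had ANGPTL7. ANGPTL7 was in 3 of 621 myeloid-like cells of the lateral red. It was in 3 of 957 mural-like cells of the medial red and 0 of 968 of the lateral red. Within matrix cells alone, MYOC was 6.38 and 1.84 CPM in lateral and medial white tissue, against 146.4 and 186 CPM in lateral and medial red tissue. ANGPTL7 was 52.8 and 371 CPM in lateral and medial white tissue, against 158 and 225 CPM in lateral and medial red tissue. Here the mean log2 ratio of white over red was -5.59 ± 1.51 for MYOC and -0.43 ± 1.63 for ANGPTL7 (SD, n = 2 menisci each), so the sign of the ANGPTL7 mean turned with the choice of cells.

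The tendon-type fibroblast-like cluster held most of the MYOC of the red zone, 77.6% of the lateral red and 82.6% of the medial red UMIs. MYOC reached 273 CPM in this cluster in the lateral red library and 725 CPM in the medial red, with 16.5% and 38.3% of its cells positive. In the white zone the same cluster had 40.6 CPM in the lateral library (17 UMIs in 251 cells) and no UMI in the 39 cells of the medial one, a count of 0 that, at 3 counts, allows a share of cells with a UMI of up to 7.69%. Such a limit is on cells with a UMI, not on cells that express the gene. In the white zone most MYOC UMIs were instead in the fibrochondrocyte-like cluster (51.2% laterally and 89.3% medially), which had 43.6 and 3.04 CPM in lateral and medial white tissue, against 161 and 90.5 CPM in lateral and medial red tissue. In this cluster, too, both white libraries lay below both red ones, and in both red libraries its level was the second highest among the matrix clusters. The fibroblast-like cluster, the largest of the red zone, was lower, at 24.7 CPM in the lateral red and 35.2 CPM in the medial red, but held 13.7% of the MYOC UMIs of the medial red against 1.83% in fibrochondrocyte-like cells. Chondrocyte-like cells had 21 UMIs among 4552 cells in the lateral white library and none among 2311 cells in the medial white, which, at 3 counts, allows a share of cells with a UMI of up to 0.1298%.

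ANGPTL7 was shared between the fibrochondrocyte-like and the tendon-type clusters, in a way that differed by zone. In fibrochondrocyte-like cells it was at 460 and 624 CPM in lateral and medial white tissue, against 366 and 562 CPM in lateral and medial red tissue. The level in this cluster thus ranged from 366 to 624 CPM with no split by zone, while the number of such cells was 642 and 3869 in lateral and medial white tissue, and 345 and 169 in lateral and medial red tissue. In this cluster the log2 ratio of white over red was 0.33 laterally and 0.15 medially, the same sign in both menisci. The share of all ANGPTL7 UMIs in fibrochondrocyte-like cells was 64.9% and 97.7% in lateral and medial white tissue, against 30.7% and 9.57% in lateral and medial red tissue. In tendon-type cells ANGPTL7 was at 217 CPM in the lateral red and 783 CPM in the medial red, but had only 2 UMIs (4.78 CPM) in the 251 such cells of the lateral white library. Chondrocyte-like cells stayed low in both white libraries, at 19.8 and 17.8 CPM in lateral and medial tissue. Fibroblast-like cells had 38.3 and 46.1 CPM in lateral and medial red tissue, and no UMI in the 55 and 81 such cells of the lateral and medial white, which, at 3 counts, allows shares of cells with a UMI of up to 5.45% and 3.70%.

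**Figure D2:**
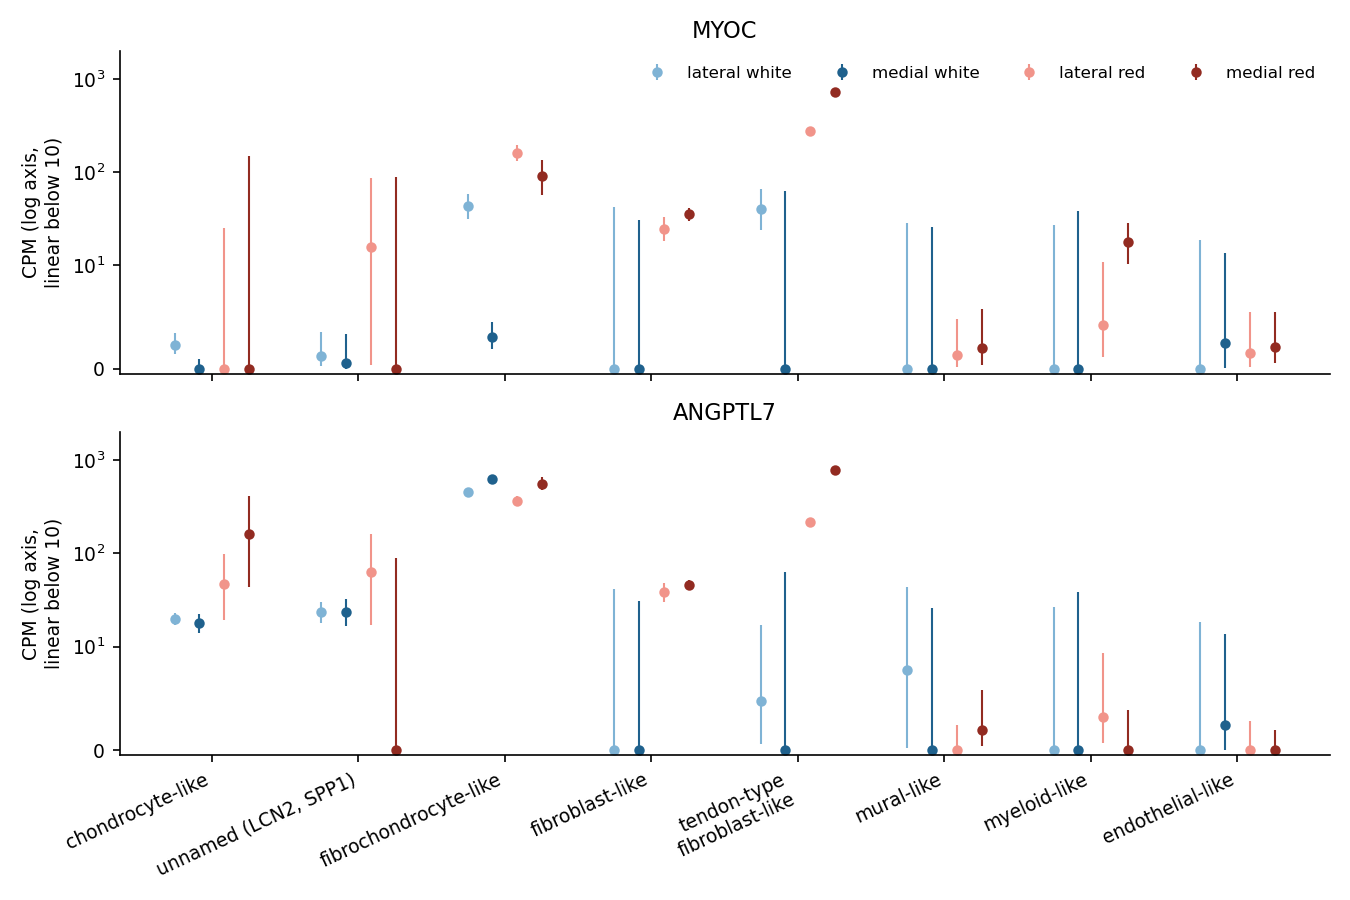
MYOC (top) and ANGPTL7 (bottom) in CPM in 8 clusters (horizontal axis), 1 point a library with its 95% exact interval (vertical axis logarithmic, linear below 10). MYOC is highest in tendon-type fibroblast-like cells of the red zone (273 and 725 CPM); ANGPTL7 is at 366 to 624 CPM in fibrochondrocyte-like cells of all 4 libraries and also high in tendon-type cells of the red zone.

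In the red zone, cells with MYOC carried ANGPTL7 more often than cells without it. Among thinned matrix cells of the lateral red library, ANGPTL7 was found in 15.9% of the 170 MYOC-positive cells (95% exact binomial interval 10.7% to 22.3%), against 4.19% (3.38% to 5.13%) of the MYOC-negative cells. In the medial red library it was in 22.7% (18.0% to 27.9%) of 291 MYOC-positive cells, against 4.98% (4.19% to 5.86%) of negative ones. In both libraries the intervals of positive and negative cells were apart. Here and below such intervals cover only counting error over the cells of a library, and cells are not replicates. Whether intervals overlap is not a test of a difference. Read the other way, MYOC was in 23.3% and 32.7% of ANGPTL7-positive cells of the lateral and medial red, against 6.57% and 7.98% of ANGPTL7-negative cells. Still, 143 of 170 MYOC-positive cells in the lateral red and 225 of 291 in the medial red had no ANGPTL7 UMI at this depth. The white libraries held only 31 and 12 thinned MYOC-positive matrix cells, of which 4 and 5 also had ANGPTL7, all 9 of them in the fibrochondrocyte-like cluster.

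Most cells with both genes lay in a single cluster. Of the cells positive for both genes, 77.8% in the lateral red and 86.4% in the medial red were tendon-type fibroblast-like. Within that cluster ANGPTL7 was in 17.8% (11.4% to 25.9%) of MYOC-positive against 5.76% (4.27% to 7.56%) of MYOC-negative cells in the lateral red. In the medial red it was in 25.9% (20.2% to 32.2%) against 18.1% (14.8% to 21.8%), where the intervals met. In fibrochondrocyte-like cells of the lateral red the shares were 13.2% (4.41% to 28.1%) and 8.74% (5.74% to 12.6%), with intervals that met. In fibroblast-like cells of the medial red they were 9.68% (3.64% to 19.9%) of 62 and 1.21% (0.78% to 1.78%), with intervals apart. In the lateral red this cluster had 7.69% (0.19% to 36.0%) of 13 and 1.34% (0.69% to 2.32%), with intervals that met.

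KERA was, like MYOC, a red zone transcript of matrix cells. Its level was 3.57 and 22.4 CPM in lateral and medial white tissue, against 93.7 and 127.5 CPM in lateral and medial red tissue. It was highest in the tendon-type cluster, at 280 CPM in the lateral red and 294 CPM in the medial red, and next in the fibroblast-like cluster, at 132 and 201 CPM, where MYOC was low. In the red libraries KERA was in 22.4% (16.3% to 29.4%) of MYOC-positive against 11.8% (10.5% to 13.3%) of MYOC-negative matrix cells of the lateral meniscus, and in 22.3% (17.7% to 27.6%) against 16.5% (15.2% to 18.0%) in the medial. The intervals were apart in the lateral red and met in the medial red. With at least 2 KERA UMIs required, the medial red shares lay the other way, at 3.09% of MYOC-positive against 3.77% of negative cells, while the lateral red had 7.06% against 2.92%. Within the tendon-type cluster the shares were 29.7% against 19.7% in the lateral red and 24.5% against 20.8% in the medial red. ANGPTL7-positive cells gave a like picture: 25% against 11.9% in the lateral red, and 21.3% against 16.8% in the medial red, carried KERA, and with at least 2 KERA UMIs 9.48% against 2.89% and 3.96% against 3.69% did. KERA was rare in fibrochondrocyte-like cells whether or not they carried ANGPTL7. In the medial white library it was in 2.94% of the 747 ANGPTL7-positive ones and 3.02% of the ANGPTL7-negative ones. In this cluster the KERA log2 ratio of white over red was -0.59 laterally and 0.43 medially, against -1.88 and -4.89 for MYOC.

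CILP had the opposite zone pattern, at 431 and 1715 CPM in lateral and medial white tissue, against 24.5 and 21.2 CPM in lateral and medial red tissue. In the lateral white library CILP was in 48.3% (39.9% to 56.7%) of 145 ANGPTL7-positive against 24.9% (23.8% to 26.1%) of ANGPTL7-negative matrix cells. In the medial white it was in 62.0% (58.6% to 65.4%) of 793 positive against 58.9% (57.7% to 60.2%) of negative cells, so the intervals were apart in the lateral library and overlapped in the medial one. Inside the fibrochondrocyte-like cluster CILP was in 46.8% (35.5% to 58.4%) against 33.6% (29.1% to 38.3%) in the lateral white, and in 61.6% against 62.3% in the medial white, so the intervals met in both. In the lateral red it was in 2 of 30 (6.67%) ANGPTL7-positive against 16.0% of negative cells of this cluster. Among chondrocyte-like cells of the lateral white CILP was in 50% (34.9% to 65.1%) of 46 ANGPTL7-positive against 25.8% (24.4% to 27.2%) of negative cells. In the unnamed matrix cluster it was in 50% (27.2% to 72.8%) of 20 against 23.3% (20.9% to 25.8%), again with intervals apart. In the medial white the intervals overlapped in both clusters, at 77.4% against 64.4% and 53.3% against 40.5%. In the red zone few cells had CILP at all: 5.17% and 3.96% of ANGPTL7-positive cells of the lateral and medial libraries, against 3.49% and 2.52% of negative ones. CILP was in 5 of 31 (16.1%) and 5 of 12 (41.7%) thinned MYOC-positive cells of the lateral and medial white, against 25.6% and 59.4% of MYOC-negative ones. In the red zone it was in 8 of 170 (4.71%) and 4 of 291 (1.37%) MYOC-positive cells of the lateral and medial libraries, against 3.48% and 2.75% of MYOC-negative ones. The intervals of positive and negative cells overlapped in all 4 libraries. Without thinning they parted in the lateral red alone, at 9.85% of MYOC-positive against 4.74% of negative cells. Most MYOC-positive red zone cells had neither CILP nor KERA at this depth, 74.7% in the lateral and 76.6% in the medial library; 71.6% and 74.8% of ANGPTL7-positive cells were likewise without both.

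**Figure D3:**
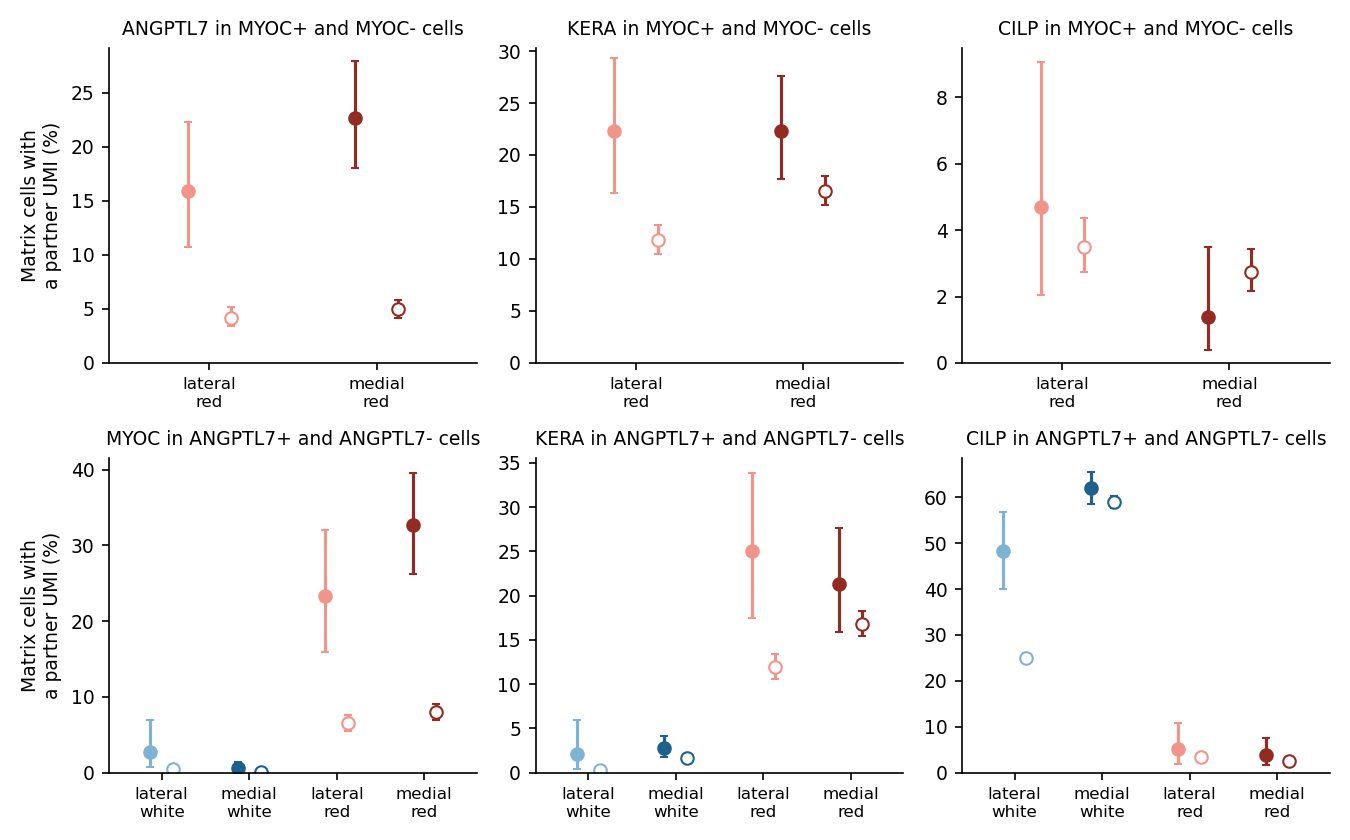
Percent of thinned matrix cells with a UMI of a partner gene (named above each panel) among MYOC-positive and MYOC-negative cells (top) and ANGPTL7-positive and ANGPTL7-negative cells (bottom), with filled points for positive cells, open points for negative cells and 95% exact intervals, in libraries with at least 50 positive cells. ANGPTL7 is in 15.9% and 22.7% of MYOC-positive red zone cells, against 4.19% and 4.98% of MYOC-negative ones.

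COL1A1 was found in nearly all red zone matrix cells (98.6% and 99.5% in the lateral and medial), so its amount per thinned cell was used. Every MYOC-positive matrix cell of the white libraries also carried COL1A1. In the lateral red library MYOC was in 0.446% of cells with 1 to 4 COL1A1 UMIs, in 5.14% of those with 5 to 19 and in 10.0% of those with 20 or more. In the medial red library the shares were 1.22%, 3.22% and 12.9%. MYOC was therefore most often found in the cells richest in type I collagen RNA in both red libraries. ANGPTL7 did the same in the white zone: in the medial white library it was in 1.57% of cells with no COL1A1 UMI, 2.19% with 1 to 4, 14.8% with 5 to 19 and 27.9% with 20 or more, and in the lateral white in 1.06%, 1.55%, 4.89% and 11.2%. In the red libraries ANGPTL7 was in 7.47% (lateral) and 9.68% (medial) of cells with 20 or more COL1A1 UMIs, against 2.30% and 0.554% of those with 5 to 19. These classes pool all matrix clusters and were not compared within them. The fibrochondrocyte-like cluster of the medial white held 92.6% of its COL1A1 and 97.7% of its ANGPTL7 UMIs. There ANGPTL7 was in 21.7% of COL1A1-positive against 2.94% of negative cells. In this cluster of the lateral white it was in 15.7% against 9.09%. Of its 508 cells there, 497 were COL1A1-positive, so the share in negative cells rests on very few cells. In chondrocyte-like cells the shares were 1.56% against 1.46% in the medial white and 1.31% against 0.977% in the lateral. Cells positive for both genes had a median of 36 COL1A1 UMIs in the lateral red and 62.5 in the medial red, against 23 and 27 in cells negative for both. Cells with MYOC alone had medians of 44 and 47 in the lateral and medial red, and cells with ANGPTL7 alone 56 and 57.5, so double-positive cells were highest in the medial red but not in the lateral red.

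**Figure D4:**
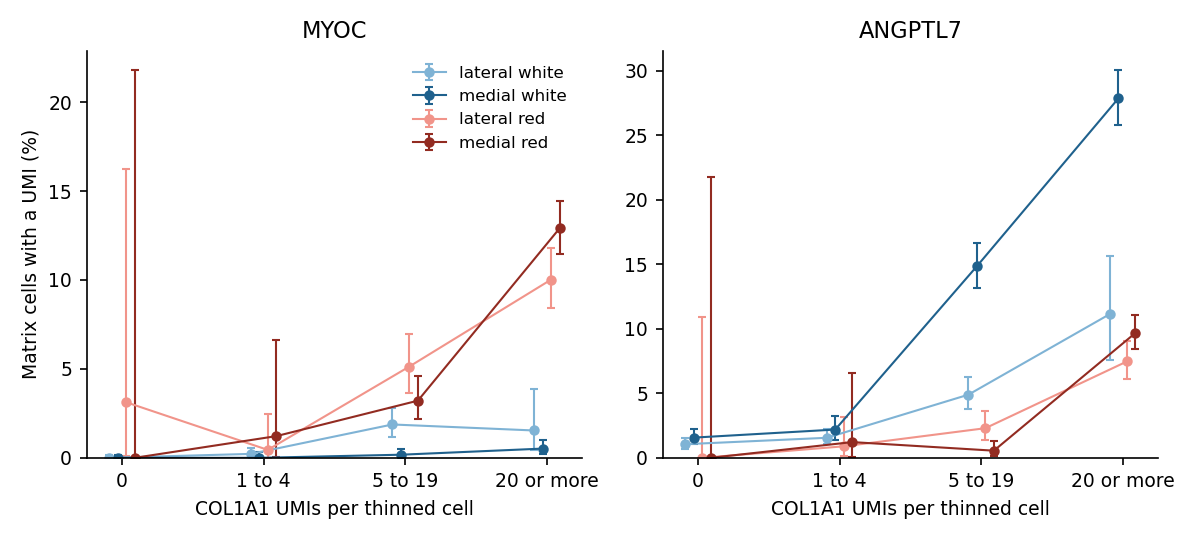
Percent of thinned matrix cells with a MYOC (left) or ANGPTL7 (right) UMI by the number of COL1A1 UMIs in the cell, 1 line a library with 95% exact intervals. Shares are highest in the class of 20 or more COL1A1 UMIs for ANGPTL7 in all 4 libraries and for MYOC in both red ones; the class without COL1A1 holds only 32 and 15 red zone cells.

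The genes whose levels ran most nearly parallel to each of the pair were ranked across 30 library by cluster sums of at least 50 cells, over 8962 genes with a symbol, by Pearson's r of log2(CPM + 1). These sums share libraries and clusters, so r is only a description. For MYOC the first were RSPO2 (r = 0.86), a secreted enhancer of Wnt signalling, ALDH1A1 (0.85), a retinaldehyde dehydrogenase, and RORB (0.82), a nuclear receptor. They were followed by NKAIN3, NRSN1, GPM6A, KLHL13, KERA (0.78), CPZ and CRABP1, the last a binder of retinoic acid. For ANGPTL7 the first was CITED1 (0.89), a transcriptional co-regulator, then NRSN1 (0.88), RSPO2 (0.86), PEBP4, FAM180B, NTRK2, PIK3C2G, ANKRD35, KCNK2 and SPOCK1. RSPO2 and NRSN1 were in both lists. The r between MYOC and ANGPTL7 themselves was 0.71; COL1A1 stood at 0.69 with MYOC and 0.74 with ANGPTL7, and CILP at 0.08 with MYOC and 0.57 with ANGPTL7.

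Within matrix cells a second ranking compared detection in cells positive and negative for each gene, at equal depth, by the lowest ratio over the libraries with at least 50 positive cells. In the 2 red libraries TNMD, which encodes the tendon protein tenomodulin, ranked first for MYOC. It was in 10.6% of MYOC-positive against 1.08% of MYOC-negative cells in the lateral red, and in 9.28% against 1.54% in the medial red. ANGPTL7 ranked second of 6037 genes, followed by PSTPIP1, LGR5, which encodes a receptor for R-spondins, ITGA1, an integrin chain that binds collagen, ADIRF, MANEA, GEMIN6, FAM180B and CCDC170. Inside the tendon-type cluster TNMD was still in 13.6% against 2.04% (lateral red) and 11.4% against 4.53% (medial red). The other genes named for MYOC were also more often found in its positive cells there in both libraries, some by little. In the medial red LGR5 was in 4.55% against 3.91% and ITGA1 in 5.00% against 4.32%. Of the 38 MYOC-positive fibrochondrocyte-like cells of the lateral red, 0 had TNMD, against 0.350% of negative ones. For ANGPTL7, over all 4 libraries, the first were ADIRF, FAM180B, CCDC3, FABP5, a fatty acid binding protein, COL8A2, a collagen chain of the corneal Descemet membrane, LATS2, a kinase of the Hippo pathway, TPM1, LOXL3, a collagen cross-linking lysyl oxidase, PLS3 and OTULINL. ADIRF was in 15.2% and 35.4% of ANGPTL7-positive cells of the lateral and medial white, against 5.16% and 8.41% of negative ones. In the red zone it was in 10.3% and 8.91% of positive cells of the lateral and medial libraries, against 3.26% and 2.23% of negative ones. ADIRF and FAM180B were thus in both lists. In the fibrochondrocyte-like cluster of the medial white library, the largest set, ADIRF was in 37.3% of ANGPTL7-positive against 13.7% of negative cells. In tendon-type cells the ADIRF difference was seen in the lateral red (8.70% of ANGPTL7-positive against 1.47% of negative cells) but hardly in the medial red (4.83% against 4.28%).

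Genes related to the pair were tested between the zones with a model fitted to all genes. The summed matrix cells pool clusters whose numbers differed by zone. Fibroblast-like cells numbered 55 and 81 in lateral and medial white tissue, against 1171 and 2723 in lateral and medial red tissue. Chondrocyte-like cells numbered 4552 and 2311, against 76 and 22, in the same order. The part of this cluster make-up in the zone ratios below was not tested. In summed matrix cells, 34.4% of 11610 genes were called by edgeR's quasi-likelihood test with Benjamini-Hochberg adjustment at 0.05. The white zone was higher in 15.1% of genes (1757) and lower in 19.3% (2235). Without the TMM factors that even out the bulk of genes, the split was 777 higher and 3393 lower, the median of all genes being then -0.36 on the log2 scale. Over all cells, 40.8% of 12435 genes were called, 18.4% higher and 22.4% lower in white tissue; without TMM factors the split there was 851 higher and 4942 lower, with a median of -0.49. Of the olfactomedin domain relatives of MYOC, 8 of 12 could be tested: 2 were higher and 4 lower in the white zone, with a median log2 ratio of -0.60 beside -0.02 over all genes; over all cells 1 of 9 was higher and 5 were lower (median -1.12). In matrix cells 3 of the family were called without the lateral red library and 2 without the medial red. OLFML2B, which encodes an extracellular matrix protein, was at 11.9 and 11.6 CPM in lateral and medial white tissue, against 127 and 117 CPM in lateral and medial red tissue. Its fitted log2 ratio was -3.02 ± 0.20 (SE, n = 2 libraries a zone; adjusted p = 7.0e-07 by edgeR). The latrophilin ADGRL2, an adhesion receptor, was lower in the white zone (-2.93 ± 0.26, edgeR adjusted p = 5.7e-06). OLFM1 was higher there (1.25 ± 0.20, edgeR adjusted p = 5.1e-04), at 25.4 and 46.3 CPM in lateral and medial white tissue, against 14.6 and 22.9 CPM in lateral and medial red tissue. OLFM1 lost its call without the lateral red library (adjusted p = 0.115) or the medial red one (0.0568). GLDN, which encodes gliomedin, was higher in the white zone in matrix cells (2.55 ± 0.47, edgeR adjusted p = 0.0012) but lower over all cells (-1.12 ± 0.37, edgeR adjusted p = 0.0356; DESeq2 adjusted p = 0.0938); its highest level was in mural-like cells (75.3 CPM). Without the medial red library its matrix cell call was lost (adjusted p = 0.134). OLFML3 was called lower (-0.88 ± 0.27, edgeR adjusted p = 0.0256), a call lost without the medial white library (0.384) or either red one (0.284 and 0.359), with DESeq2 (adjusted p = 0.0563) and without the meniscus term as a replicate block (0.136); its ratio was -1.47 without the lateral white. OLFM2 (-0.02 ± 0.21) and ADGRL1 (-0.31 ± 0.26) were not called. The other 3 of the family in the files were under the filter on low counts.

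Of the 12 angiopoietin-like genes, angiopoietins and their receptors, 10 could be tested in matrix cells: 2 were higher and 4 lower in the white zone (median log2 -0.45), or 0 higher and 5 lower without TMM factors; without the medial red library 3 were called in all. Over all cells 2 were higher and 7 lower (median -1.88). Of all genes, 15.1% were higher and 19.3% lower in matrix cells, and 18.4% and 22.4% over all cells. ANGPTL4, a secreted inhibitor of lipoprotein lipase, was at 22.6 and 16.5 CPM in lateral and medial white tissue, against 256 and 284 CPM in lateral and medial red tissue (-3.45 ± 0.24, edgeR adjusted p = 1.1e-06). ANGPTL1 (-2.41 ± 0.26, edgeR adjusted p = 2.7e-05) and ANGPT4 (-3.46 ± 0.48, edgeR adjusted p = 1.7e-04) were lower too, as was ANGPT1, a ligand of the receptor TEK (-1.88 ± 0.32, edgeR adjusted p = 8.2e-04), whose call was lost without the lateral red (0.0904) or the medial red library (0.0611). ANGPTL5 went the other way, at 210 and 386 CPM in lateral and medial white tissue, against 180 and 100.7 CPM in lateral and medial red tissue (1.43 ± 0.34, edgeR adjusted p = 0.0068). ANGPTL6 was higher as well (1.19 ± 0.27, edgeR adjusted p = 0.0049). Both calls were lost without the medial red library (adjusted p = 0.197 and 0.214) and without TMM factors (0.0623 and 0.0608). ANGPTL2, detected in 41.3% of matrix cells, was at 194 and 467 CPM in lateral and medial white tissue, against 464 and 736 CPM in lateral and medial red tissue, and was not called (-0.61 ± 0.26, edgeR adjusted p = 0.0844). It was called lower without the medial white library (adjusted p = 0.0135) and without TMM factors (0.0229). ANGPTL7 had a fitted value of -0.07 ± 0.41 and MYOC of -5.10 ± 0.41 in the same fit, given here with no test.

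**Figure D5:**
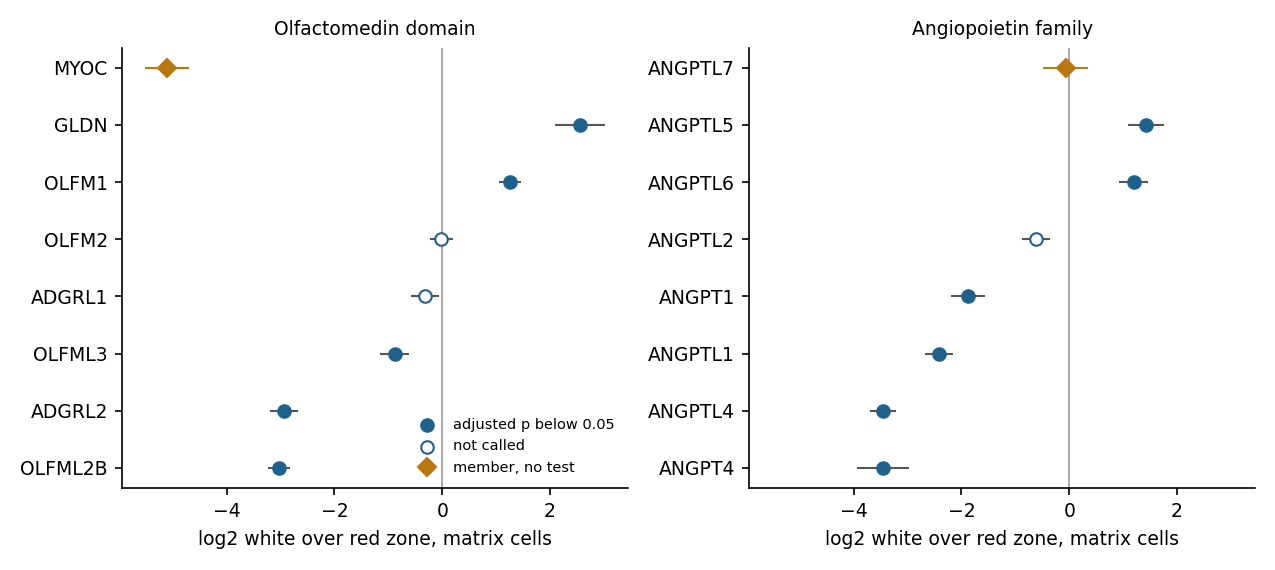
Fitted log2 ratio of white over red zone in matrix cells (horizontal axis) with its standard error for the named olfactomedin domain genes (left) and angiopoietin family genes (right); filled points have an edgeR adjusted p below 0.05, open points do not, and diamonds mark MYOC and ANGPTL7, which were not tested. Relatives of both genes lie on either side of 0, and none of those drawn is as low as MYOC, at -5.10.

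Of the other fibrinogen-like domain genes, 5 of 12 were tested in matrix cells. In the white zone 3 were lower and none higher (median log2 -3.48), beside 19.3% and 15.1% of all genes. Over all cells 1 was higher and 3 were lower (median -2.43), beside 18.4% and 22.4% of all genes. FGL2 was at 3.57 and 1.92 CPM in lateral and medial white tissue, against 310 and 286 CPM in lateral and medial red tissue (-6.45 ± 0.30, edgeR adjusted p = 6.5e-08). By cluster it was at 469 CPM in fibroblast-like, 351 in mural-like and 238 in myeloid-like cells. TNN, a tenascin, was lower (-4.49 ± 0.29, edgeR adjusted p = 5.9e-07), as was TNXB (-3.48 ± 0.54, edgeR adjusted p = 3.9e-04), whose call was lost without the lateral red (0.053) or the medial red library (0.0936) and whose ratio was -2.08 without the lateral white. Markers of several other cell types also moved with the zone in matrix cells. The summed level of the 8 myeloid markers was 33.6 and 25.6 CPM in lateral and medial white tissue, against 64.0 and 61.1 CPM in lateral and medial red tissue, with 1 marker at 0 in the lateral white and none in the others. That of the 8 endothelial markers was 10.1 and 5.82 CPM in lateral and medial white tissue, against 40.0 and 59.5 CPM in lateral and medial red tissue, with 1 marker at 0 in the lateral white. The 3 erythroid markers summed to 0.456 and 0.142 CPM in lateral and medial white tissue, against 52.9 and 21.6 CPM in lateral and medial red tissue, with 2 at 0 in each library but the medial red, where 1 was. Schwann cell markers summed to 7.22 and 16.3 CPM in lateral and medial white tissue, against 45.9 and 57.1 CPM in lateral and medial red tissue. The summed level of B or plasma cell markers did not split by zone. It was 70.8 and 72.2 CPM in lateral and medial white tissue, against 65.9 and 101.3 CPM in lateral and medial red tissue. Its members differed by cluster over all libraries. CD79A was at 84.1 CPM in chondrocyte-like, 46.2 in fibroblast-like and 39.5 in tendon-type cells. JCHAIN was at 0.966, 31.8 and 47.5 CPM, and MZB1 at 0, 7.77 and 5.03 CPM, in the same order. The part of these markers of other cell types in these results was not tested.

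Of a list of glucocorticoid-responsive genes, of interest because glucocorticoids raise MYOC in human trabecular meshwork cells, 19 of 22 were tested in matrix cells. In the white zone 3 were higher and 7 lower (median log2 -0.39), beside 15.1% and 19.3% of all genes. Fewer were called when either red library was left out. Over all cells, too, 3 were higher and 7 lower (median -0.48), beside 18.4% and 22.4% of all genes. PDK4, a kinase that restrains pyruvate oxidation, was at 1.60 and 2.06 CPM in lateral and medial white tissue, against 44.3 and 70.7 CPM in lateral and medial red tissue (-4.61 ± 0.25, edgeR adjusted p = 2.0e-07). PER1, of the circadian clock (-1.42 ± 0.19, edgeR adjusted p = 1.2e-04), and DUSP1, a phosphatase of MAP kinases (-1.83 ± 0.25, edgeR adjusted p = 1.6e-04), were lower too. MT1A, a metallothionein whose close copies may share reads, was higher (3.24 ± 0.37, edgeR adjusted p = 3.8e-05). These named genes are the called ones of lowest p, and 9 of the 19 tested were not called. Among those not called were FKBP5 (-0.38 ± 0.21, edgeR adjusted p = 0.189) and TSC22D3 (-0.39 ± 0.25, edgeR adjusted p = 0.241). ZBTB16 (-0.36 ± 0.20, edgeR adjusted p = 0.199), GLUL (-0.28 ± 0.20, edgeR adjusted p = 0.324) and CRISPLD2 (0.01 ± 0.24, edgeR adjusted p = 0.971) were others.

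Reported binding partners of myocilin and Wnt regulators linked to it went both ways. In matrix cells 7 of the 24 tested were higher and 7 lower in the white zone (median log2 -0.16). Of all genes, 15.1% were higher and 19.3% lower in matrix cells, and 18.4% and 22.4% over all cells. Without TMM factors 5 of this list were higher and 9 lower in matrix cells. Without the medial red library 7 were called in all, and over all cells 7 were higher and 8 lower (median 0.14). MMP2, a gelatinase, was at 40.3 and 29.7 CPM in lateral and medial white tissue, against 778 and 1209 CPM in lateral and medial red tissue (-4.46 ± 0.34, edgeR adjusted p = 1.6e-06). LAMB1, a laminin chain (-2.73 ± 0.21, edgeR adjusted p = 1.6e-06), and FBN1, which encodes fibrillin (-1.83 ± 0.21, edgeR adjusted p = 4.0e-05), were lower too. WIF1, a secreted Wnt inhibitor, was higher (2.10 ± 0.23, edgeR adjusted p = 2.4e-05), a call lost without the lateral white (0.172) or the medial red library (0.266) and without the meniscus term as a replicate block (0.0592); its ratio was 3.43 without the lateral red.

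Among other genes of corneal, scleral and trabecular stroma, 5 of 21 tested were higher and 5 lower in the white zone (median log2 -0.12), with 6 called in all without the lateral red library and 3 without the medial red. Over all cells 10 were higher and 4 lower (median 0.77), or 6 and 6 without TMM factors. Of all genes, 15.1% were higher and 19.3% lower in matrix cells, and 18.4% and 22.4% over all cells. LUM, which encodes lumican, a proteoglycan related to keratocan, was at 90.02 and 69.8 CPM in lateral and medial white tissue, against 1518 and 1681 CPM in lateral and medial red tissue (-3.99 ± 0.31, edgeR adjusted p = 2.1e-06). CPXM1 (-4.23 ± 0.41, edgeR adjusted p = 9.9e-06) and ALDH1A1 (-3.77 ± 0.30, edgeR adjusted p = 2.5e-06) were lower too, whereas CHI3L1, a chitinase-like glycoprotein, was higher (3.85 ± 0.33, edgeR adjusted p = 4.5e-06; 0.0829 without the medial red library, and a ratio of 2.36 without the lateral white). In the list of TGF-beta and BMP signalling, 7 of 22 genes tested in matrix cells were higher and 5 lower (median log2 0.43). Over all cells 11 of 23 were higher and 6 lower (median 0.54), or 7 and 7 without TMM factors. The shares of all genes beside them are those given above. The joint growth factor GDF5 (3.91 ± 0.32, edgeR adjusted p = 2.8e-06), the BMP inhibitor GREM1 (2.27 ± 0.21, edgeR adjusted p = 6.7e-06) and the receptor TGFBR1 (1.98 ± 0.21, edgeR adjusted p = 2.6e-05) were higher. CHRDL1, another BMP inhibitor, had no UMI in the white zone and 291 in matrix cells of the red zone, at least 229-fold lower in white against a floor of 3 UMIs over the zone (edgeR adjusted p = 5.9e-07; DESeq2 adjusted p = 0.081).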

How the data were processed

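The authors deposited, per sample, a matrix of raw UMI counts with its features and barcodes, from Cell Ranger 6.1.2 and Sscrofa11.1, per the submitters' processing notes. The members and gene lists were chosen with earlier results of these data known. Of 27782 barcodes, 27341 were kept: at least 200 genes, at most 20% mitochondrial UMIs, and no Scrublet doublet call (scanpy 1.11.5). Scrublet called 1 and 0 white zone cells, too few to have worked, so doublets remain there. The 2000 most variable genes, less the 5 of interest, gave 30 principal components and Leiden clusters (resolution 0.5), named from fixed markers. Of the 21280 features, 14811 have a symbol in the files and 694 took one from the gene name table.

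Counts were summed per library and tested with edgeR 4.0.16 (filterByExpr, TMM, meniscus as second term, 1 residual degree of freedom). Named genes were the members, the 3 partners, the 10 most alike by each measure, and per list up to 4 called genes of lowest p in matrix cells and family members in at least 1% of matrix cells. Of the glucocorticoid list, some genes not called are named as well. Intervals are 95% exact (Poisson or Clopper-Pearson). Alternatives covered normalization, DESeq2 1.42.0, filters, clusters, thinning, a partner minimum of 2 UMIs and leaving out libraries.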

Additional observations from a re-analysis of the deposited data

Results flagged for a closer look

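ANGPTL7 differed between white and red zone in opposite directions in the 2 menisci. Over all cells the log2 ratio of white over red CPM was -0.73 laterally and 1.39 medially. In matrix cells it was -1.58 laterally and 0.72 medially. With 1 library per meniscus and zone the difference between menisci was not tested. The fibrochondrocyte-like cluster, where ANGPTL7 was at 366 to 624 CPM in every library, made up 8.70% and 49.6% of the cells of the lateral and medial white libraries, and 6.20% and 2.57% of those of the lateral and medial red; the part of these shares in the opposite signs was not tested.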

How the results depend on the processing

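The MYOC zone ratio kept its sign in every alternative run (log2 -5.59 to -4.31; -5.91 to -3.69 when 1 meniscus was left out). The ANGPTL7 mean, 0.33, became -0.43 in matrix cells alone, -0.42 in matrix cells at resolution 1.0 and -0.73 without the medial libraries (1.39 without the lateral); the cause was not tested. Taken over all kept cells in place of matrix cells, the red zone log2 ratio of MYOC detection in KERA-positive over KERA-negative cells was 1.58 (0.73 in matrix cells), and that for ANGPTL7 was 2.69 (1.92). For CILP the MYOC ratio in the red zone, -0.26, turned to 0.10 unthinned and to 0.48 over all kept cells, and the ANGPTL7 ratio, 0.58, turned to -0.15 at 500 UMIs. Genes called numbered 5079 over all cells and 3992 in matrix cells; DESeq2 gave 3238 and 1972. Leaving out 1 library gave 2404 (without the medial red) to 4945, and 1019 (without the medial red) to 3286; without the lateral red they were 2783 and 1766. Libraries of the same meniscus deviated together weakly (correlation 0.14 and 0.15, over 2 menisci); with no replicate block 4635 and 3186 genes were called. OLFM2, not called, lay between -0.073 and 0.037 when 1 library was left out, above 0 without the medial red. Of the 10 genes most like each member, 3 to 7 were shared with other likeness settings. MYOC in the white zone rests on 84 and 28 UMIs, which limits its co-detection there.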

Other observations

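Some genes were less often found in ANGPTL7-positive than in ANGPTL7-negative matrix cells in all 4 libraries, at equal depth; they were chosen after their values were seen. EFEMP1, which encodes the extracellular matrix protein fibulin-3, was in 17.9% and 10.1% of positive cells of the lateral and medial white libraries, against 34.5% and 26.0% of negative ones. In the red zone it was in 6.03% and 7.92% of positive cells of the lateral and medial libraries, against 23.5% and 24.3% of negative ones. PLXDC1, a transmembrane receptor, was in 3.45% and 3.96% of ANGPTL7-positive cells of the lateral and medial red, against 15.7% and 18.7% of negative ones. These are shares of cells in 4 libraries, with no test.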
